A study of Mus musculus with 29 samples.

Results

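Proteasome subunit genes of the inducible and the constitutive kind were compared in RNA-seq libraries of mouse hematopoietic stem cells (HSCs). The members are the rows with the symbols Psmb8, Psmb9, Psmb10, Psme1, Psme2, Psmb5, Psmb6 and Psmb7, which makes 8 genes of the 55376 in each file. They were set by name with no cut on their values, though earlier results of these data were known when they were chosen. All 8 passed the filter on low counts that left 33690 genes for testing. Their counts were high in each library, from 1605 for Psmb7 to 30942 for Psmb8.

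The proteasome degrades proteins in a barrel, the 20S core, whose outer alpha rings guard inner beta rings. Psmb6, Psmb5 and Psmb7 encode the constitutive catalytic beta subunits, with caspase-like, chymotrypsin-like and trypsin-like activity in that order. Interferon induces Psmb9, Psmb8 and Psmb10, which take the places of Psmb6, Psmb5 and Psmb7 in newly built cores, and such a core is called the immunoproteasome. Psme1 and Psme2 encode the alpha and beta chains of PA28, an interferon-induced cap that opens the core. Immunoproteasomes supply peptides for MHC class I molecules and are the usual form in many blood cells.

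The 19 libraries came from HSCs of young and old wild-type mice (labelled YWT, n = 4, and OWT, n = 4) and of young and old Gadd45b knockout mice (YKO, n = 4, and OKO, n = 7). The genotype label is WT or Gadd45KO, the knockout line came from JAX, the study's sequencing summary lists the wild-type mice as C57BL/6J, and the labels give age only as young or old. The labels name no other treatment. They do not say whether libraries came from separate animals or pools, so p-values measure the spread between these libraries. The comparisons address how age, the loss of Gadd45b and their combination relate to expression.

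Library totals ran from 22197555 to 77970627 counts, with a median of 57562473. The study's sequencing summary places YWT, YKO and OKO1 to OKO3 in batch 1 and OWT and OKO4 to OKO7 in batch 2, and the sample titles divide in the same way, so age in wild-type HSCs and batch cannot be told apart. OKO1 to OKO3 stood apart: between 19725 and 27972 genes reached 1 CPM (counts scaled to a common library total) in them, 19626 did in YWT4 and 18530 in YKO2, and 15296 to 16917 in the other libraries. Gadd45b was counted in each library, at 183 to 761 counts, and its level in YKO (5.14 to 14.3 CPM) overlapped that in YWT (7.34 to 17.5 CPM), so its count does not separate the young genotypes. The overlap came from YKO1 and YKO2, at 12.7 and 14.3 CPM, whereas YKO3 and YKO4, at 5.98 and 5.14 CPM, lay below all of YWT. In old libraries Gadd45b was at 2.84 to 6.94 CPM in OKO and 10.1 to 15.5 CPM in OWT. HSC marker genes such as Kit were counted in all libraries. Transcripts of B cells and plasma cells were counted as well, with the highest summed levels in YWT2, YKO1 and YKO2. All labels give female, whereas Xist and Y-linked counts matched that label in 12 of 19 libraries. These bulk libraries cannot separate fewer cells of a type from less RNA per cell.

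Gene positions below were read from the GENCODE M21 annotation of mm10. Psmb8 (ENSMUSG00000024338.15, chr17:34197721-34201454, + strand) and Psmb9 (ENSMUSG00000096727.3, chr17:34181987-34187764, - strand) lie close together in the MHC, with the peptide transporter gene Tap1 between them. Psme1 (ENSMUSG00000022216.17, chr14:55578123-55581529, + strand), Psme2 (ENSMUSG00000079197.10, chr14:55587441-55591113, - strand) and Psmb5 (ENSMUSG00000022193.7, chr14:54614119-54618022, - strand) share chromosome 14. Psmb10 (ENSMUSG00000031897.9) is at chr8:105935735-105938444 on the - strand, Psmb6 (ENSMUSG00000018286.6) at chr11:70525367-70527858 on the + strand and Psmb7 (ENSMUSG00000026750.6) at chr2:38588036-38644087 on the - strand. Of the exon bases, 14.7% of Psmb8 overlap Gm20496, 5.79% of Psmb9 overlap Tap1, 12.1% of Psmb5 overlap Mir686 and 11.8% of Psmb7 overlap Nek6. Whether the authors' counting used strand is not given in the sources used here, so reads in these stretches may belong to either gene.

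Promoter sequences were available for 7 of the 8 genes in RefSeq on GRCm38.p6, the assembly also called mm10. The 250 bases upstream of each start were searched on both strands for 3 patterns of 9 bases, which do not overlap in these windows. GAAANNGAA is a core of the interferon-stimulated response element, TTCNNNGAA is the gamma-activated site of interferon-induced genes, and TGACNNNGC is a core of the antioxidant response element bound by NRF1 and NRF2, factors that drive constitutive proteasome genes. Among 32851 such windows, 7.13% hold the first pattern, 7.02% the second and 10.2% the third. Matches were found upstream of 3 members, and these stretches are shown because they hold the letters in question: the gamma-activated site upstream of the inducible Psmb8 and the antioxidant core upstream of the constitutive Psmb5 and Psmb6. Capitals mark the match, with 9 bases on each side, 5′ to 3′ on the strand of the gene.
Psmb8: cctccgctgTTCCCAGAAgatgccccc
Psmb5: gtgaagttgTGACGTCGCggcgttgcc
Psmb6: taaagagagTGACGGAGCgctttacga

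These stretches are chr17:34198089-34198115 for Psmb8, chr14:54618025-54618051 for Psmb5 and chr11:70525339-70525365 for Psmb6. The matches begin 97, 47 and 9 bases before the RefSeq start, in that order. GENCODE also annotates an exon of a longer Psmb8 transcript across the first of them. The windows of Psmb9, Psmb10, Psme1 and Psme2 hold none of the 3 patterns as spelled here, which says nothing about the factors. A match is a description of letters, not a measured binding site.

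Levels between genes were compared as CPM per kilobase of the principal transcript, averaged over the 19 libraries. Psmb6 had the highest level at 303.2 ± 77.2 (SD), followed by Psme1 at 268 ± 53.5, Psmb8 at 226 ± 48.4, Psme2 at 164 ± 43.5, Psmb9 at 134 ± 31.4, Psmb10 at 127 ± 25.8, Psmb5 at 108 ± 30.1 and Psmb7 at 75.9 ± 22.2 CPM per kilobase. Only the step from Psmb5 to Psmb7 held in all 19 libraries. Psmb9 and Psmb10 did not differ beyond their spread, since Psmb9 was the higher in 9 of 19 libraries, and Psmb6 exceeded Psme1 in 15 of 19. When all annotated exon bases were used as the length, a choice made after the data were seen, the order became Psme1, Psmb6, Psmb8, Psmb5, Psmb10, Psme2, Psmb9 and Psmb7. On both length scales Psmb10 lay above its partner Psmb7 and Psmb9 below its partner Psmb6, while Psmb8 lay above Psmb5 on the principal transcript scale and next to it, at 109 ± 23.3 against 108 ± 30.1 CPM per kilobase, on the scale of all exons.

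Inducible catalytic subunits thus made up a large part of the catalytic transcripts in each group. Their share of the summed counts per principal transcript base of all 6 catalytic genes was 48.9% ± 2.44 (SD, n = 4) in YWT, 52.2% ± 2.54 (n = 4) in OWT, 45.8% ± 4.36 (n = 4) in YKO and 53.0% ± 6.72 (n = 7) in OKO. With all exon bases as the length the group means were 48.1%, 51.7%, 45.2% and 52.4%. The lowest library was YKO at 42.0% and the highest an OKO library at 62.5%, and each group overlapped every other one.

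The values in the next paragraphs are CPM normalized by the trimmed mean of M values (TMM), which serve to compare 1 gene across libraries. Psmb8 encodes the inducible chymotrypsin-like subunit LMP7. Its CPM was 359, 411, 335 and 292 in the 4 YWT libraries, 411, 471, 366 and 446 in OWT, 374, 317, 335 and 333 in YKO, and from 203 over a median of 376 to 530 in the 7 OKO libraries. Both extremes of Psmb8 were OKO libraries, OKO1 and OKO7, and OWT overlapped YWT through OWT3 and YWT2. Psmb9 encodes LMP2, the inducible partner of Psmb6. Its CPM was 177, 243, 177 and 139 in YWT, 185, 220, 164 and 193 in OWT, 209, 168, 169 and 169 in YKO, and from 107 over 155 to 275 in OKO. Psmb10 encodes MECL-1, the inducible partner of Psmb7. Its CPM was 175, 178, 172 and 139 in YWT, 182, 194, 160 and 186 in OWT, 152, 126, 178 and 184 in YKO, and from 94.0 over 152 to 234 in OKO. In all 3 inducible genes YWT4 was the lowest YWT library and OWT3 the lowest OWT library, and no pair of compared groups separated.

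The PA28 chains were read on the same scale. Psme1 CPM was 335, 316, 302 and 272 in YWT, 357, 319, 310 and 325 in OWT, 314, 222, 340 and 355 in YKO, and from 154 over 261 to 389 in OKO. Psme2 CPM was 189, 186, 167 and 139 in YWT, 147, 142, 153 and 167 in OWT, 177, 139, 200 and 187 in YKO, and from 77.5 over 110 to 247 in OKO. The groups overlapped for both chains. The intronless relative Psme2b was counted at 2.66% to 12.02% of the Psme2 count, so part of the reads of each may belong to the other.

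On TMM-normalized CPM, constitutive subunits had the widest range over libraries. Psmb5, the constitutive chymotrypsin-like subunit, had a CPM of 116.5, 109, 92.6 and 90.2 in YWT, 77.8, 118, 94.4 and 90.5 in OWT, 108, 78.6, 124 and 131 in YKO, and from 33.7 over 95.2 to 141 in OKO. Psmb6, the caspase-like subunit, had 277, 265, 232 and 211 in YWT, 225, 275, 238 and 257 in OWT, 294, 188, 298 and 319 in YKO, and from 95.7 over 210 to 346 in OKO. Psmb7, the trypsin-like subunit, had 103, 88.8, 87.0 and 69.8 in YWT, 72.3, 93.6, 97.8 and 88.4 in OWT, 120, 72.8, 110 and 120 in YKO, and from 32.3 over 74.3 to 140 in OKO. For all 3 genes the lowest 3 OKO libraries were OKO1, OKO2 and OKO3, YKO2 was the lowest YKO library, and OKO7 was the highest OKO library. The highest CPM was 4.20 times the lowest for Psmb5, 3.61 times for Psmb6 and 4.34 times for Psmb7, against 2.48 to 2.61 times for Psmb8, Psmb9 and Psmb10. This order depended on the TMM factors. Scaled by the library total alone, the constitutive genes did not have the widest range, with 61.2 to 123 CPM for Psmb5 and 122 to 341 CPM for Psmb9. Pseudogene copies of Psmb5, Psmb6 and Psmb7 took counts of at most 3.59%, 1.45% and 0.187% of those of the parent.

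**Figure D1:**
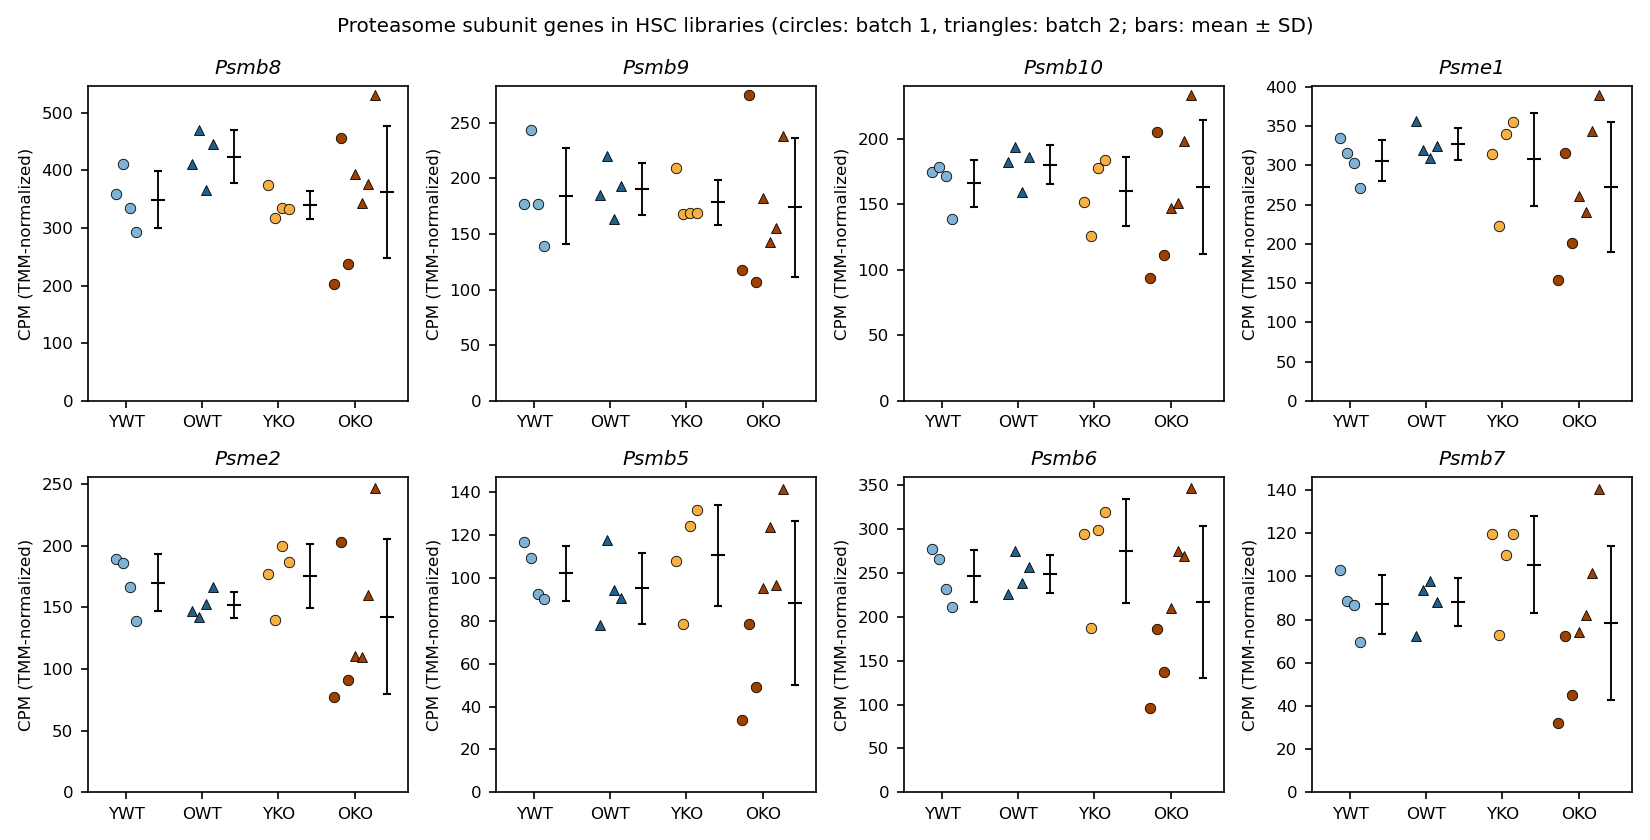
TMM-normalized CPM (vertical axes, from 0) of the 8 genes in each library of the 4 groups, with circles for batch 1, triangles for batch 2 and bars for the group mean ± SD. The OKO libraries span the widest range in each panel, for example 33.7 to 141 for Psmb5.

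Age in wild-type HSCs was examined in OWT vs YWT. No member was called at an adjusted p under 0.05 with a fold change over 1.5 by the edgeR quasi-likelihood test, where 0.00297% of all genes tested were called, and 0 of 8 had an unadjusted p under 0.05. Psmb8 had the largest log2 fold change, 0.28 ± 0.25 (SE), from a mean of 349 ± 49.5 CPM in YWT to 423 ± 45.7 in OWT (SD, n = 4 each). Psmb9 (0.05 ± 0.26), Psmb10 (0.12 ± 0.25) and Psme1 (0.10 ± 0.25) had positive log2 fold changes below their errors, as did Psmb6 (0.01 ± 0.30) and Psmb7 (0.01 ± 0.31), whose sign turned to -0.03 and -0.02 with upper-quartile factors. Psme2 (-0.16 ± 0.29) and Psmb5 (-0.10 ± 0.32) had negative ones. The groups did not separate for any of the 8 genes, against 4.13% of all genes tested. The median log2 fold change was 0.03 over the members and -0.05 over all genes.

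Loss of Gadd45b in young HSCs was examined in YKO vs YWT, and again 0 of 8 members were called, with 0.0267% of all genes called and 0 members with an unadjusted p under 0.05. The inducible genes had log2 fold changes of -0.04 ± 0.25 (Psmb8), -0.04 ± 0.26 (Psmb9) and -0.05 ± 0.25 (Psmb10). PA28 genes had 0.01 ± 0.25 (Psme1) and 0.05 ± 0.29 (Psme2). The constitutive genes had 0.11 ± 0.32 (Psmb5), 0.16 ± 0.30 (Psmb6) and 0.28 ± 0.31 (Psmb7), so all 3 of them were positive and all 3 inducible genes negative, each within its error. Without YWT2, YKO1 and YKO2, the libraries rich in B cell and plasma cell transcripts, the inducible genes also had positive values, 0.0026 for Psmb8, 0.02 for Psmb9 and 0.14 for Psmb10, a choice made after the data were seen. No member separated the groups, compared with 5.12% of all genes.

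Age in knockout HSCs, OKO vs YKO, gave the most calls of the 4 comparisons, 1.29% of all genes, and 0 of 8 members were among them, with 0 at an unadjusted p under 0.05. The number of genes called rested on single libraries, at 434 with all, 102 without YKO1, 225 without YKO2, 267 without YKO3, 226 without OKO3, 253 without OKO4 and 1822 without OKO7. It was 22 without YWT2, YKO1 and YKO2 together. With the replicate number as a block 0 members and 5.27% of all genes were called. The inducible genes had log2 fold changes of 0.09 ± 0.23 (Psmb8), -0.04 ± 0.23 (Psmb9, which turned to 0.10 with upper-quartile factors) and 0.03 ± 0.22 (Psmb10). Psme1 had -0.18 ± 0.22 and Psme2 -0.30 ± 0.25. The constitutive genes had the lowest values, -0.32 ± 0.28 for Psmb5, -0.34 ± 0.26 for Psmb6 and -0.43 ± 0.27 for Psmb7, with an edgeR adjusted p of 0.459 for Psmb7, the smallest of the 8. The median log2 fold change was -0.24 over the members and 0.23 over all genes, and no member separated the groups, against 2.6% of all genes.

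Within batch 1 the comparison read differently. With OKO1, OKO2 and OKO3 as the OKO group, Psmb5, Psmb6 and Psmb7 were called lower than in YKO, with edgeR log2 fold changes of -0.98, -0.91 and -1.02 and adjusted p of 0.0149, 0.0131 and 0.0118, whereas the other 5 members were not called. In that fit 17.9% of all genes were called. With batch as a covariate 19.1% of all genes and the same 3 members were called. Batch varies only within OKO, so the covariate fit sets OKO1 to OKO3 against YKO again and is not a separate test. In CPM, Psmb5 was 33.7, 78.5 and 48.9 in these 3 libraries, Psmb6 was 95.7, 186 and 137 and Psmb7 was 32.3, 72.4 and 45.3, each below the 4 YKO libraries. These margins were narrow, with the highest of the 3 libraries at 78.47 against a lowest YKO value of 78.56 for Psmb5, 186.3 against 187.6 for Psmb6 and 72.43 against 72.85 for Psmb7. Over all genes 29.2% separated these 3 libraries from YKO, so 3 of 8 members is close to that share. Scaled by the library total alone, without TMM factors (1.24 to 1.83 in OKO1 to OKO3), the groups overlapped for these 3 genes, at 61.2 to 97.5 against 75.1 to 123 CPM for Psmb5. The mean stayed below that of YKO, at 75.9 against 102 CPM for Psmb5. Psmb8 turned with the scaling, from a mean of 299 CPM in OKO1 to OKO3 against 340 in YKO after TMM to 423 against 312 CPM by library total. The part of the larger gene number of these libraries in the calls was not tested. OKO4 to OKO7 had 95.2 to 141 TMM-normalized CPM of Psmb5, within or above the range of YKO.

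Genotype in old HSCs was examined in OKO vs OWT, where 0 of 8 members and 0.0327% of all genes were called, with 0 members at an unadjusted p under 0.05. All 8 members had negative log2 fold changes, from -0.27 ± 0.22 for Psme1 to -0.09 ± 0.25 for Psme2, with edgeR adjusted p of at least 0.65, but Psmb5, Psmb9, Psmb10 and Psme2 had positive values of 0.04 to 0.09 with upper-quartile factors. The median was -0.16 over the members and 0.12 over all genes. Within batch 2, using OKO4 to OKO7, Psmb5, Psmb6, Psmb7, Psmb10 and Psme2 had positive values, from 0.04 for Psmb10 to 0.29 for Psmb5. No member separated the groups (0.819% of all genes did). The genotype by age interaction was called for 0 of 8 members, with 0% of all genes called at an adjusted p under 0.05 and 0 members with an unadjusted p under 0.05. By DESeq2, 0 members were called as well, where it called 0.401% of all genes in OWT vs YWT, 0.404% in YKO vs YWT, 6.3% in OKO vs YKO and 0.217% in OKO vs OWT, and 0.0208% for the interaction.

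**Figure D2:**
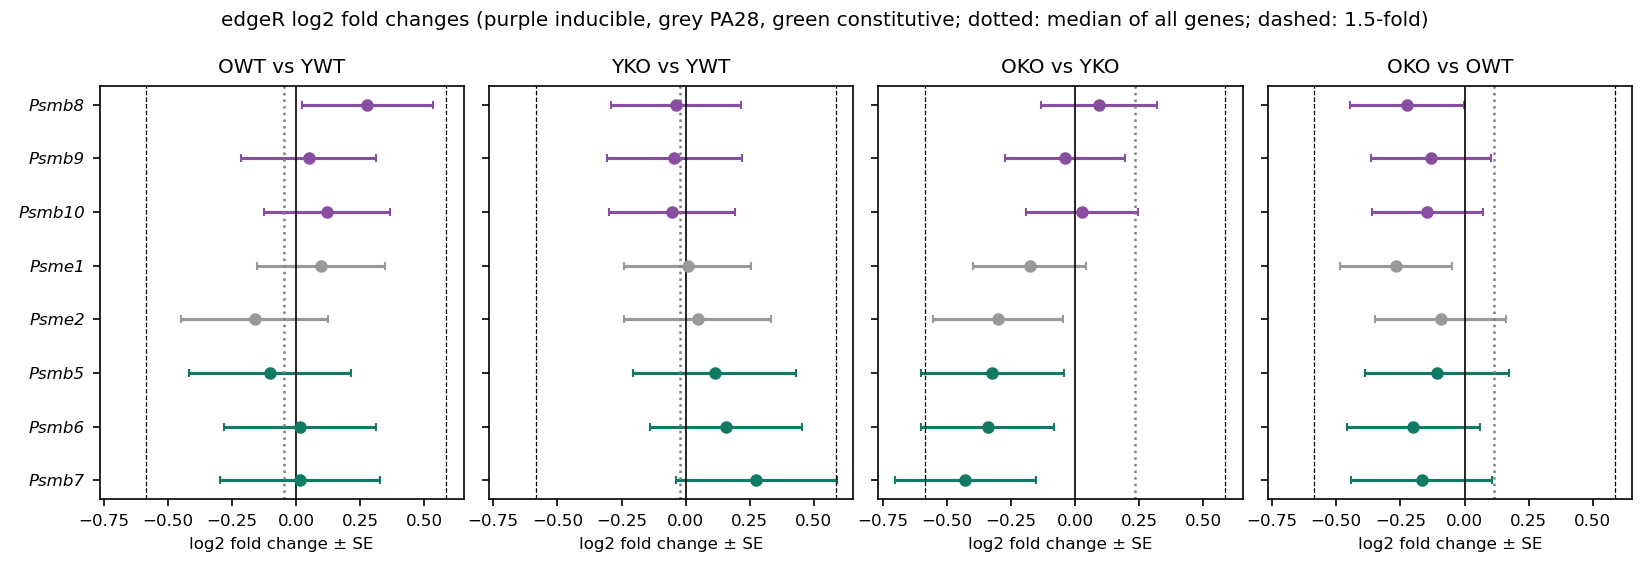
edgeR log2 fold change ± SE (horizontal axes) of the 8 genes in the 4 comparisons, with dotted lines at the median of all genes and dashed lines at 1.5-fold. In OKO vs YKO the constitutive genes (green) lie between -0.43 and -0.32 and the inducible genes (purple) between -0.04 and 0.09.

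A ratio taken within a library does not depend on how libraries are scaled. The log2 ratio of the count of each inducible gene to that of the constitutive gene whose place it takes was therefore compared between groups by exact two-sided permutation tests, 12 in all. These ratios are not per length, so only their differences between groups are read. None of the 12 passed correction, with Benjamini-Hochberg adjusted p from 0.172 to 0.83, while 2 had an unadjusted p under 0.05.

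For Psmb8 to Psmb5, the pair with chymotrypsin-like activity, the log2 ratio was 1.62, 1.91, 1.85 and 1.70 in YWT and 2.40, 2.00, 1.95 and 2.30 in OWT. Each of the 4 OWT libraries lay above each YWT library, a difference of 0.39 or 1.31-fold (exact permutation p = 0.0286, the smallest that 4 against 4 allows, adjusted 0.172). This comparison has 1 batch per age. In YKO the ratio was 1.80, 2.01, 1.44 and 1.34, which overlapped YWT (difference -0.12, exact permutation p = 0.486). In OKO it ran from 1.47 over a median of 2.05 to 2.59. OKO exceeded YKO by 0.47 with overlap (exact permutation p = 0.0697, adjusted 0.209) and differed from OWT by -0.05 (exact permutation p = 0.83).

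The OKO values of this ratio divided by batch. OKO1, OKO2 and OKO3 had 2.59, 2.54 and 2.28, above all 4 YKO libraries, and OKO4 to OKO7 had 2.05, 1.47, 1.96 and 1.91. Within batch 1 OKO exceeded YKO by 0.82 (exact permutation p = 0.0571, where 0.0286 is the smallest possible). Within batch 2 OKO lay below OWT by a difference of -0.32 with overlap (exact permutation p = 0.171).

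For Psmb10 to Psmb7, the pair with trypsin-like activity, the log2 ratio was 0.76, 1.01, 0.98 and 0.99 in YWT, 1.33, 1.05, 0.71 and 1.07 in OWT and 0.35, 0.79, 0.69 and 0.62 in YKO. OKO ran from 0.73 over 0.99 to 1.54, and 6 of its 7 libraries lay above all of YKO. The difference of OKO from YKO was 0.52 or 1.43-fold (exact permutation p = 0.0182, adjusted 0.172). Within batch 1 it was 0.84 without overlap, from 1.30 to 1.54 in OKO against at most 0.79 in YKO (exact permutation p = 0.0286, the smallest possible). YKO lay below YWT by a difference of -0.32, with 3 of 4 libraries below all of YWT (exact permutation p = 0.0571, adjusted 0.209). OWT and YWT overlapped, with a difference of 0.10 (exact permutation p = 0.371). Between OKO and OWT the difference was 0.09 (exact permutation p = 0.642), and -0.15 within batch 2 (exact permutation p = 0.343).

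For Psmb9 to Psmb6, the pair with caspase-like specificity in its constitutive form, no difference between groups had a permutation p under 0.05. The log2 ratio was -0.64, -0.12, -0.39 and -0.60 in YWT, -0.28, -0.32, -0.54 and -0.41 in OWT, -0.49, -0.16, -0.82 and -0.92 in YKO and from -0.95 over -0.35 to 0.56 in OKO. Only OKO1 and OKO2, at 0.30 and 0.56, had a higher count of Psmb9 than of Psmb6. The difference of OKO from YKO was 0.32 (exact permutation p = 0.333) and that of OWT from YWT 0.05 (exact permutation p = 0.714). YKO differed from YWT by -0.16 (exact permutation p = 0.486) and OKO from OWT by 0.11 (exact permutation p = 0.727). Within batch 1 OKO exceeded YKO by 0.77 (exact permutation p = 0.0857), and within batch 2 it differed from OWT by -0.23 (exact permutation p = 0.257).

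Other measures also differed between the libraries, and their part in these ratios was not tested. The marker sums in this paragraph are CPM scaled by the library total alone, without TMM factors. Over the 8 B cell marker genes fixed as a list, the summed CPM per library was 245 to 506 in YWT, 62.0 to 228 in OWT, 186 to 1528 in YKO, 37.4 to 59.2 in OKO1 to OKO3 and 79.0 to 190 in OKO4 to OKO7, with 0 of the 8 genes at 0 in any library. The 8 granulocyte genes summed to 160 to 488 CPM in YWT, 589 to 811 in OWT, 47.9 to 262 in YKO, 321 to 560 in OKO1 to OKO3 and 160 to 519 in OKO4 to OKO7. The 9 HSC genes summed to 1838 to 2542 CPM in YKO and 2862 to 3843 in OKO1 to OKO3, and the 8 monocyte, macrophage and dendritic genes to 76.8 to 106 and 35.5 to 48.3 CPM. By library total, OKO1 to OKO3 thus separated from YKO in B cell, granulocyte, HSC and monocyte markers. They overlapped YKO in erythroid markers, at 932 to 3116 against 2226 to 5934 CPM. T and NK cell markers (67.0 to 219 against 76.5 to 171 CPM) and megakaryocyte markers (819 to 1083 against 559 to 1175 CPM) overlapped as well. Within YKO, YKO2 had the highest B cell sum, 1528 CPM, and also the highest log2 ratio of Psmb8 to Psmb5, 2.01, and of Psmb10 to Psmb7, 0.79. TMM factors were 1.24 to 1.83 in OKO1 to OKO3 and 0.847 to 0.957 in YKO. The separation in HSC and granulocyte markers therefore does not carry over to TMM-normalized CPM. The 6 plasma cell genes summed to 1287 to 18550 CPM in YWT, 393 to 2792 in OWT and 714 to 13060 in YKO. They summed to 224 to 513 CPM in OKO1 to OKO3, below all of YKO, and to 1158 to 3664 in OKO4 to OKO7. Without YWT2, YKO1 and YKO2 the Psmb8 to Psmb5 ratio differed by 0.44 between OWT and YWT (exact permutation p = 0.0571) and the Psmb10 to Psmb7 ratio by 0.47 between OKO and YKO (exact permutation p = 0.111). Without OKO1, OKO2, OKO3, YWT4 and YKO2 those differences were 0.37 (exact permutation p = 0.0857) and 0.34 (exact permutation p = 0.0571). Both choices were made after the data were seen.

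**Figure D3:**
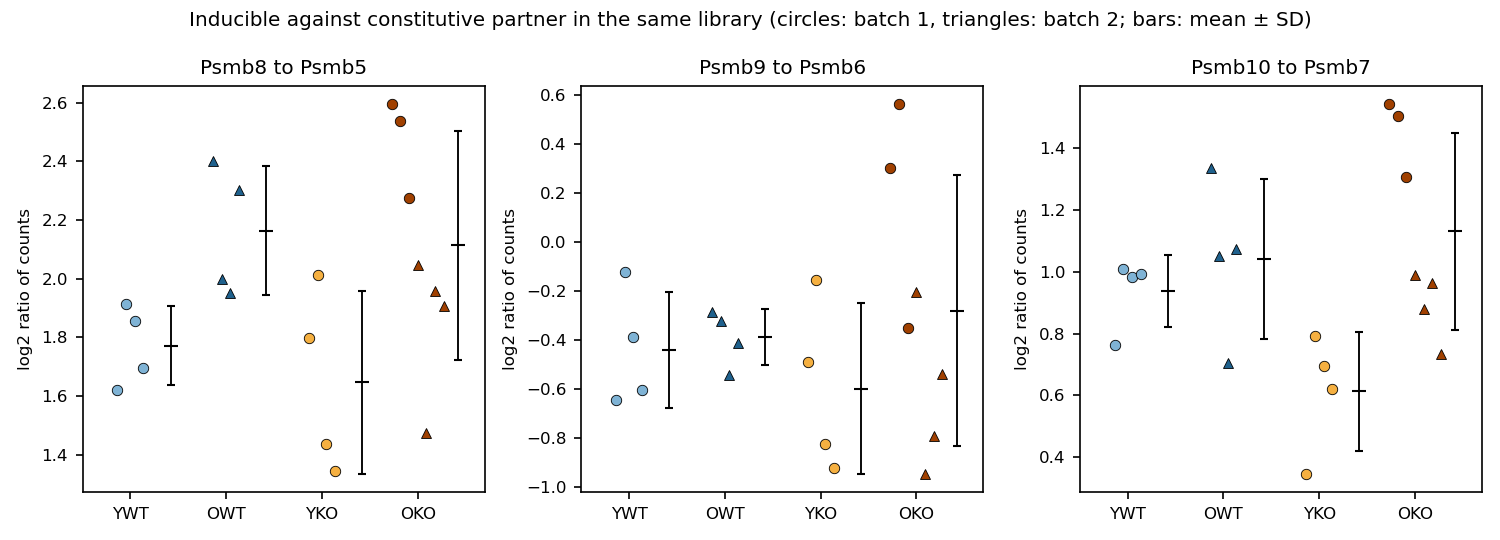
log2 ratio of the inducible to the constitutive count (vertical axes) in each library, with circles for batch 1, triangles for batch 2 and bars for mean ± SD. For Psmb8 to Psmb5 the OWT libraries, 1.95 to 2.40, lie above the YWT libraries, 1.62 to 1.91. OKO1 and OKO2, at 2.59 and 2.54, are the highest, and OKO3, at 2.28, lies within the range of OWT.

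As a second scale within a library, each count was set against the mean log2 count of the 7 alpha ring genes (Psma1 to Psma7) of the same library, the part of the core that both kinds of proteasome share. In OKO vs YKO all 7 ring genes had negative log2 fold changes, with -0.28 as the median, as the constitutive genes did. This scale therefore does not show which partner of a pair moved. Psma6 of the ring correlated with the mean of the constitutive genes at r = 0.98, but it was picked as a close match of theirs and does not stand for the ring. On TMM-normalized CPM the same comparison gave values near 0 for Psmb8 and Psmb10 and negative ones for Psmb5 and Psmb7. The values against the ring were not tested. Psmb8 stood 0.72 ± 0.17 (SD) log2 units above the ring in YWT, 0.97 ± 0.18 in OWT, 0.62 ± 0.32 in YKO and 1.00 ± 0.26 in OKO, and OKO1 to OKO3 had 1.08 to 1.31. Psmb10 was at -0.35 ± 0.12, -0.26 ± 0.18, -0.48 ± 0.15 and -0.15 ± 0.25 in the same order, with -0.01 to 0.16 in OKO1 to OKO3. Psme1 was at 0.78 to 0.86 in OKO1 to OKO3 and at 0.41 to 0.54 in YKO.

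Psmb6 and Psmb7 varied least against the ring. Psmb6 was at 0.22 ± 0.10, 0.20 ± 0.08, 0.28 ± 0.03 and 0.21 ± 0.13 in YWT, OWT, YKO and OKO, and Psmb5 at -1.05 ± 0.12, -1.20 ± 0.16, -1.03 ± 0.07 and -1.11 ± 0.22. Psmb7 was at -1.29 ± 0.01 in YWT and -1.30 ± 0.08 in OWT, at -1.10 ± 0.09 in YKO and at -1.28 ± 0.08 in OKO. In OKO1 to OKO3 the inducible genes and PA28 thus had higher values against the ring than in OKO4 to OKO7 on average (1.22 against 0.84 for Psmb8, 0.33 against -0.37 for Psmb9, 0.10 against -0.34 for Psmb10, 0.83 against 0.41 for Psme1 and -0.10 against -0.62 for Psme2), and the constitutive genes had lower ones (-1.25 against -1.01 for Psmb5, 0.16 against 0.25 for Psmb6 and -1.35 against -1.23 for Psmb7).

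**Figure D4:**
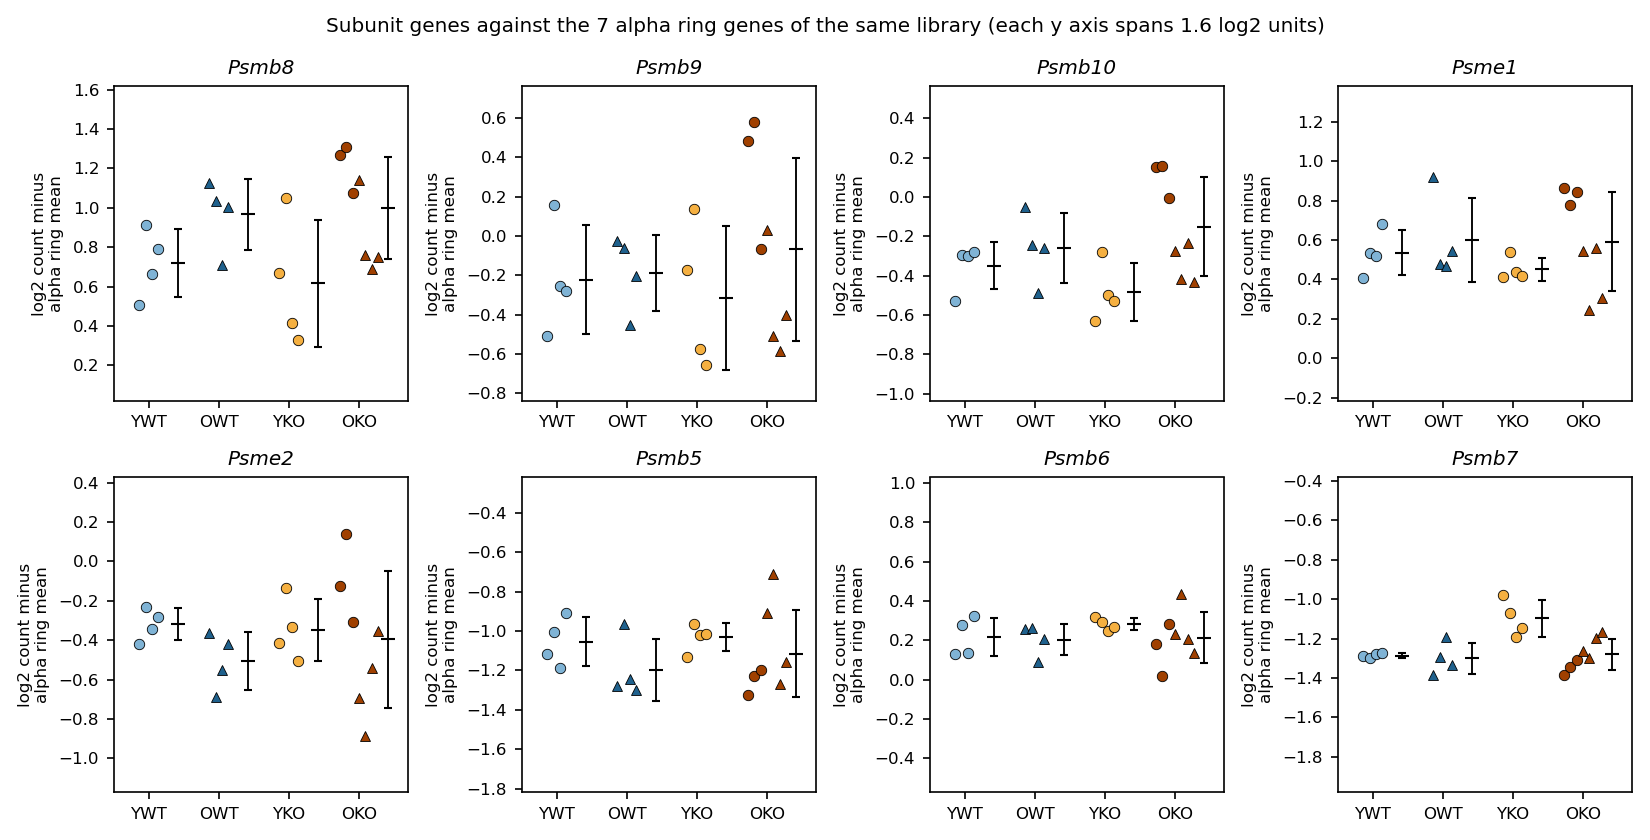
log2 count of each gene minus the mean log2 count of the 7 alpha ring genes in the same library (vertical axes), with circles for batch 1, triangles for batch 2 and bars for mean ± SD. Psmb6 stays between 0.02 and 0.44 over the libraries, whereas Psmb9 runs from -0.65 to 0.58.

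Over the 19 libraries the constitutive genes correlated more with each other than with any other member, and the inducible genes were less distinct. On log2(CPM + 1), the 3 constitutive genes correlated with each other at Pearson r of 0.94 to 0.97 and the 3 inducible catalytic genes at 0.76 to 0.89. Between the kinds r was 0.55 to 0.81, lowest for Psmb9 with Psmb6. Psmb10 correlated more with Psmb6 (0.81) and Psmb7 (0.80) than with the inducible Psmb9 (0.76). Psme1 and Psme2 correlated at 0.89, with the inducible genes at 0.68 to 0.94 and with the constitutive genes at 0.74 to 0.88. The points share library depth, scaling and group, so these values are descriptions. The ratio of Psme1 to Psme2 also varied, with a log2 value of 0.85 ± 0.09 (SD) in YWT, 1.11 ± 0.14 in OWT, 0.80 ± 0.10 in YKO and 0.99 ± 0.24 in OKO.

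The genes most like each kind were found among the 10710 other genes with a mean of at least 10 CPM. The mean of the inducible genes was matched best by Gm20496 (r = 0.93, n = 19 libraries), Isg20 (0.90), Ifi35 (0.88), Ppa1 (0.87) and Pi4k2b (0.87). Gm20496 overlaps Psmb8, so the counts of the pair may share reads. Isg20 and Ifi35 are interferon-stimulated genes. The mean of the constitutive genes was matched best by Atp5f1 (r = 0.99), a subunit of the mitochondrial ATP synthase, Psmc3 (0.99) and Psmd8 (0.99) of the 19S regulatory particle, Psma6 (0.98) of the alpha ring and Hras (0.98).

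**Figure D5:**
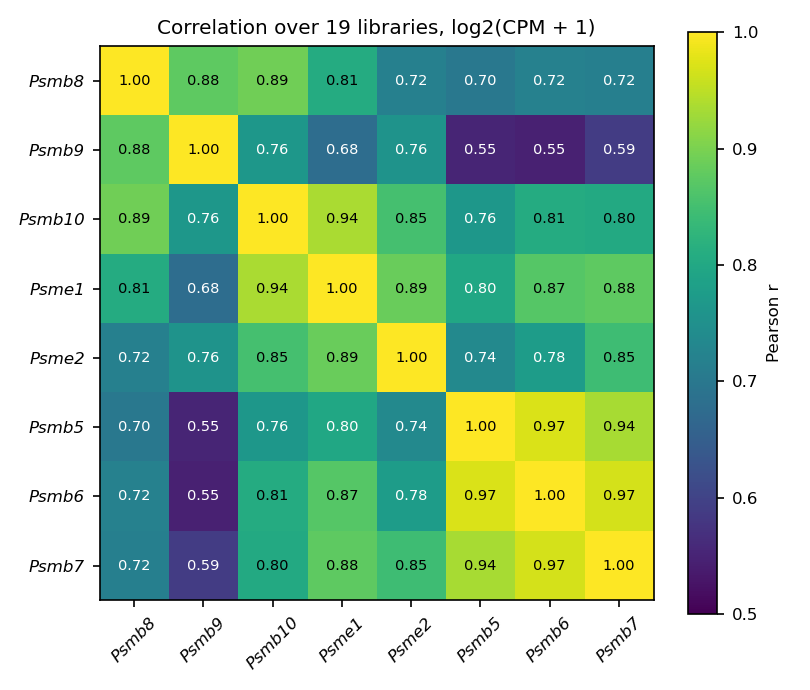
Pearson correlation between the 8 genes over the 19 libraries on log2(CPM + 1), with the value in each square. The 3 constitutive genes correlate with each other at 0.94 to 0.97, and Psmb9 has the lowest values with them, 0.55 to 0.59.

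The other 43 proteasome genes gave a frame for the members. In YKO vs YWT, 0 of 43 were called, 0 had an unadjusted p under 0.05, 37 had a positive log2 fold change and the median was 0.15, against -0.02 over all genes. All 21 genes listed under the 19S regulatory particle, the cap that binds ubiquitin chains, were positive there, with a median of 0.22. Not each gene of that list need be a part of the finished cap. In OKO vs YKO 0 of 43 were called, 5 had an unadjusted p under 0.05, where 15.8% of all genes did, and 40 were negative. Medians were -0.49 for the 19S list, -0.28 for the alpha ring, -0.29 for the 4 non-catalytic beta genes and -0.39 for the 5 genes listed as assembly chaperones, against 0.23 over all genes. These 2 comparisons share the YKO libraries. The OKO values pool both batches after TMM, and the 43 genes were not compared within a batch. Among the members, mean Psmb5 was 53.7 CPM in OKO1 to OKO3, 114 in OKO4 to OKO7 and 110 in YKO. In OKO vs YKO the lowest values of the 43 were those of Psme3 (-0.71 ± 0.29 SE), the nuclear activator PA28 gamma, and Psmd3 (-0.64 ± 0.27). The highest were those of Psmb11 (1.75 ± 1.07), the thymus-specific catalytic subunit, which was near 0 at 0.457 CPM in OKO and 0.128 in YKO, and Psme4 (0.17 ± 0.18), the activator PA200.

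In OWT vs YWT 0 of the 43 were called, with 0 at an unadjusted p under 0.05, 17 positive, 26 negative and a median of -0.02. In OKO vs OWT 0 were called and 1 had an unadjusted p under 0.05, where 8.14% of all genes did. There 41 were negative and the median was -0.19. The 4 other activators and inhibitors had medians of 0.13, -0.01, -0.15 and -0.19 for age in wild-type, genotype in young, age in knockout and genotype in old HSCs. Of the tissue-specific 20S genes, Psma8 had log2 fold changes of 0.20, -0.45, -0.08 and -0.72 in that order, and Psmb11, near 0 in CPM, had 0.20, -0.23, 1.75 and 1.32. For genotype in old HSCs Psma8, at 15.0 CPM in OKO and 24.7 in OWT, was the gene with an unadjusted p under 0.05, and its edgeR adjusted p was 0.592. The 3 regulators of constitutive proteasome genes, Nfe2l1, Nfe2l2 and Ddi2, were not called in any comparison, with medians of 0.16, 0.08, -0.20 and -0.23. The interaction was called for 0 of these genes.

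Interferon drives the inducible subunits, and 14 genes of its signal and of induction were examined. Irf8 alone was called, in OKO vs YKO: it encodes a transcription factor of the myeloid and B cell lineages and was lower, at 15.5 ± 6.51 CPM (SD, n = 7) against 79.6 ± 65.01 (n = 4), a log2 fold change of -2.36 ± 0.42 (SE, edgeR adjusted p = 0.00576). The interaction of Irf8 had an edgeR adjusted p of 0.811, and the B cell markers given above were also lower in OKO than in YKO, whose part in this call was not tested. In OKO vs YKO 4 of the 14 had an unadjusted p under 0.05, where 15.8% of all genes did. Of the 14 log2 fold changes there, 6 were positive and 8 negative. The medians of the 14 were 0.18 in OWT vs YWT, 0.05 in YKO vs YWT, -0.05 in OKO vs YKO and -0.19 in OKO vs OWT.

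The 8 class I peptide supply genes, which load the peptides that immunoproteasomes make, were called in 0 comparisons. In OWT vs YWT all 8 were positive with a median of 0.29, against 0.03 over the members and -0.05 over all genes, and in OKO vs OWT all 8 were negative with a median of -0.28. The medians were -0.10 in YKO vs YWT and 0.22 in OKO vs YKO. Tap1, which lies head to head with Psmb9, correlated with it at r = 0.83 over 19 libraries, and the log2 ratio of Psmb9 to Tap1 was -0.36 ± 0.16 (SD) in YWT, -0.57 ± 0.34 in OWT, -0.82 ± 0.10 in YKO and -0.56 ± 0.22 in OKO. Psmb9 and Tap1 overlap, so this ratio can hold reads of either gene.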

How the data were processed

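RNA-seq was analysed in 19 HSC libraries, and the bisulfite sequencing samples of the series were not analysed here. The authors trimmed reads with Trim Galore 0.4.3 and cutadapt, mapped them to mm10 with STAR and a GENCODE index, and counted them per gene with featureCounts. The deposited values are these raw counts, with no normalization. Strand and multimapping settings are not given in the sources used here. Depth was 22197555 to 77970627 counts per library.

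Counts were analysed in R 4.3.3. Genes passed filterByExpr, were normalized by TMM, and were tested with the quasi-likelihood test of edgeR 4.0.16 in a single model that held the 19 libraries and the 4 groups, without covariates. A gene was called where its p, adjusted by Benjamini-Hochberg, was under 0.05 and its fold change exceeded 1.5, and no fold was asked of the interaction. DESeq2 1.42.0, which the study names, was an alternative. The study links a script whose name mentions RUV, a correction for unwanted variation, which was not used here. Log2 ratios used counts within a library and exact two-sided permutation tests. Correlations used log2(CPM + 1). The procedures were tested on simulated data.

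The members and gene lists were chosen with earlier results of these data known. Named in the text are all 8 members, list genes that were called, the 2 highest and 2 lowest of the other proteasome genes in the comparison with most calls, and the 5 genes most like each kind. Tap1, Psma8, Nfe2l1, Nfe2l2 and Ddi2 fall outside this rule and were named after their values were seen. Groups were taken from the sample labels. Replicate numbers did not pair the libraries: deviations of same-numbered libraries correlated above 0.1 in 5 of 24 pairs (r from -0.49 to 0.33). No 2 libraries held identical values. The listed sex went against Xist and Y-linked counts in 3 libraries. Alternatives were DESeq2, upper-quartile factors, no low-count filter, a minimum mean CPM of 5, calls without the fold threshold, only the groups compared, batch, listed sex or replicate number as a term, OKO of 1 batch, and leaving out each library.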

Additional observations from a re-analysis of the deposited data

Results flagged for a closer look

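In 44 sets of values, the 8 members and 3 ratios in each of the 4 groups, 3 held a library far from the others by Dixon's test, and chance flags about 1 in 20 such sets. The Psmb10 level was 139 CPM in YWT4, whereas the other YWT libraries had 172 to 178 CPM. The Psmb9 level was 209 CPM in YKO1, whereas the other YKO libraries had 168 to 169 CPM. The log2 ratio of Psmb10 to Psmb7 was 0.76 in YWT1 and 0.98 to 1.01 in the other YWT libraries.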

How the results depend on the processing

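Of 53 alternative counts of members called, 51 stayed at 0, and 3 members were called in OKO vs YKO with batch as a covariate and with OKO of the same batch. Batch varies only within OKO, so both of these settings rest on OKO1 to OKO3 against YKO. Values below are log2 fold changes of genes and differences of log2 ratios whose direction turned or whose p crossed 0.05, and their cause was not tested. With a mean CPM of at least 5, OKO vs OWT gave 0.0703 (Psmb10), 0.0571 (Psmb5), 0.11 (Psmb9) and 0.11 (Psme2), OWT vs YWT gave -0.0293 (Psmb6) and -0.0194 (Psmb7), OKO vs YKO gave 0.18 (Psmb9) and 0.0355 (Psme1) and YKO vs YWT gave -0.0403 (Psme1). With OKO of the same batch, OKO vs OWT gave 0.0444 (Psmb10), -0.15 (Psmb10 to Psmb7), 0.29 (Psmb5), 0.17 (Psmb6), 0.21 (Psmb7), -0.23 (Psmb9 to Psmb6) and 0.0685 (Psme2) and OKO vs YKO gave -0.16 (Psmb10) and -0.13 (Psmb8). With batch as a covariate, OKO vs OWT gave 0.0183 (Psmb10), 0.26 (Psmb5), 0.14 (Psmb6), 0.18 (Psmb7) and 0.0432 (Psme2), OKO vs YKO gave -0.22 (Psmb10) and -0.19 (Psmb8) and OWT vs YWT gave -0.30 (Psmb10), -0.96 (Psmb6), -0.98 (Psmb7), -0.18 (Psmb8), -0.0578 (Psmb9) and -0.37 (Psme1). With upper-quartile factors, OKO vs OWT gave 0.0457 (Psmb10), 0.0414 (Psmb5), 0.0767 (Psmb9) and 0.09 (Psme2), OWT vs YWT gave -0.0251 (Psmb6) and -0.0166 (Psmb7) and OKO vs YKO gave 0.10 (Psmb9). Without the 5 libraries with the most genes at 1 CPM (chosen after seeing the data), OKO vs OWT gave 0.018 (Psmb10), -0.15 (Psmb10 to Psmb7), 0.27 (Psmb5), 0.14 (Psmb6), 0.18 (Psmb7), -0.23 (Psmb9 to Psmb6) and 0.0379 (Psme2), OKO vs YKO gave 0.34 (Psmb10 to Psmb7) and OWT vs YWT gave -0.0354 (Psmb6), -0.0608 (Psmb7), 0.37 (Psmb8 to Psmb5), -0.0506 (Psmb9) and -0.0038 (Psmb9 to Psmb6). The libraries share only a replicate number, and with the replicate block, OKO vs YKO gave -0.23 (Psmb10), 0.72 (Psmb10 to Psmb7) and -0.13 (Psmb8), OWT vs YWT gave -6e-04 (Psmb7) and 0.39 (Psmb8 to Psmb5) and OKO vs OWT gave 0.20 (Psmb8 to Psmb5). Without the 3 libraries rich in B cell and plasma cell transcripts (chosen after seeing the data), OKO vs YKO gave -0.13 (Psmb10), 0.47 (Psmb10 to Psmb7) and 0.0645 (Psmb9), YKO vs YWT gave 0.14 (Psmb10), 0.0026 (Psmb8) and 0.016 (Psmb9) and OWT vs YWT gave 0.44 (Psmb8 to Psmb5). With DESeq2, OWT vs YWT gave -0.0084 (Psmb6) and -0.0046 (Psmb7), OKO vs YKO gave 0.0143 (Psmb9) and OKO vs OWT gave 0.0012 (Psme2). With listed sex as a covariate, OWT vs YWT gave -0.0159 (Psmb7). With no filter, OKO vs YKO gave 0.0411 (Psmb9) and YKO vs YWT gave -0.03 (Psme1). With only the groups compared, YKO vs YWT gave -0.0012 (Psme1). The replicate block called 0 members, and over all genes 1774 against 434 in OKO vs YKO, 25 against 9 in YKO vs YWT, 9 against 1 in OWT vs YWT and 0 against 11 in OKO vs OWT. Adding 1 to each count changed no ratio's direction or call.

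Leaving out each library in turn kept the members called at 0. In OKO vs YKO the ranges were -0.0781 to 0.15 (Psmb10), 0.43 to 0.58 (Psmb10 to Psmb7), -0.0198 to 0.19 (Psmb8), 0.37 to 0.59 (Psmb8 to Psmb5) and -0.18 to 0.0753 (Psmb9). In YKO vs YWT the ranges were -0.16 to 0.0472 (Psmb10), -0.0105 to 0.25 (Psmb5), -0.12 to 0.0193 (Psmb8), -0.16 to 0.0912 (Psmb9), -0.0979 to 0.14 (Psme1) and -0.0501 to 0.14 (Psme2). In OKO vs OWT the ranges were -0.0223 to 0.19 (Psmb10 to Psmb7), -0.26 to 0.0361 (Psmb5), -0.13 to 0.056 (Psmb8 to Psmb5), -0.0318 to 0.22 (Psmb9 to Psmb6) and -0.28 to 0.0212 (Psme2). In OWT vs YWT the ranges were 0.0072 to 0.22 (Psmb10 to Psmb7), -0.0514 to 0.0799 (Psmb6), -0.0781 to 0.12 (Psmb7), 0.31 to 0.46 (Psmb8 to Psmb5), -0.0637 to 0.21 (Psmb9) and -0.0164 to 0.16 (Psmb9 to Psmb6). The Psmb10 to Psmb7 ratio in OKO vs YKO had an exact permutation p of 0.05 without YKO1. The Psmb8 to Psmb5 ratio in OWT vs YWT lost p under 0.05 in 5 of 8 cases, with the highest exact permutation p, 0.0857, without YWT1. Others gained a p under 0.05: the Psmb10 to Psmb7 ratio in OWT vs YWT without OWT3 (exact permutation p = 0.0286) and the Psmb8 to Psmb5 ratio in OKO vs YKO without OKO5 (exact permutation p = 0.0286) or YKO2 (exact permutation p = 0.0417).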
